A study of Homo sapiens with 16 samples.

Results

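The 10 core genes of the circadian clock, CLOCK, BMAL1, PER1, PER2, PER3, CRY1, CRY2, NR1D1, NR1D2 and DBP, were followed in 4 human lung cancer lines given a pair of small molecules or vehicle. They were taken by gene symbol from a table of 28951 genes. All 10 were found by their Ensembl identifiers, with BMAL1 listed under its older symbol ARNTL in GENCODE 29, and all 10 had enough reads to be tested.

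Total RNA was sequenced from H460, H1703, HCC827 and H441, established lines of non-small cell lung cancer grown in RPMI with 10% fetal bovine serum. From 1 day after plating, each line received DMSO, called vehicle here, or 5 µM MYCi975 plus 25 µM TMP195 for 48 hours. MYCi975 blocks the transcription factor MYC, TMP195 blocks class IIa histone deacetylases, and the 2 together are called the combination. H460 and H1703 are the lines that the series names responsive, and its non-responsive lines are HCC827 and H441. Each of the 8 groups had 2 libraries, 16 in all, and the labels do not say whether the 2 libraries came from separate cultures, so p-values measure the spread between these libraries, which may be technical. The labels name no step that synchronises the cells, and each group was sampled at a single time, so a level here is an average over the cells of a dish. Cells given each agent alone were not analysed here.

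The clock is a loop of transcription and repression. CLOCK and BMAL1 bind DNA together at E-boxes and switch on the PER and CRY genes, whose proteins gather in a complex that returns to the nucleus and silences CLOCK and BMAL1. A second loop runs through the nuclear receptors NR1D1 and NR1D2 (REV-ERB alpha and beta), which are themselves E-box targets and repress BMAL1 at ROR elements, where the ROR receptors activate it. DBP, a PAR bZIP factor, is an output gene that carries E-box rhythm to D-box genes. PER1 is also an immediate response gene for several outside stimuli. In lung, clocks run in the airway epithelium and shape its inflammatory responses.

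DNA letters that match the elements of this loop can be read near the starts of several of the genes. RefSeq promoter windows on GRCh38.p14, each from 250 bases before to 50 bases after a transcription start, matched all 10 genes, 5 with 1 window and 5 with 2. Both strands were searched for the E-box CACGTG, the E-prime box CACGTT, the D-boxes TTATGTAA and TTACGTAA, the ROR element TAGGTCA, the cAMP response element TGACGTCA and its end TGACG, which the full element contains. The stretches printed here are examples that show an E-box, an E-prime box or a D-box in both NR1D genes and in 2 PER genes. For BMAL1, the stretch shows a match to the ROR element, the kind of element at which the NR1D receptors act. Capitals mark the motifs.
NR1D2, chr3:23945921-23946030, plus strand: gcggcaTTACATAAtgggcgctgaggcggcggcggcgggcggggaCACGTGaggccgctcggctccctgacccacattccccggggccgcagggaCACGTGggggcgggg
NR1D1, chr17:40100730-40100789, minus strand: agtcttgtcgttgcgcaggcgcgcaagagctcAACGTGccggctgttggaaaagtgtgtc
PER1, chr17:8152545-8152604, minus strand: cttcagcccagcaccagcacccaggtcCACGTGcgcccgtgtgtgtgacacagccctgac
PER2, chr2:238288771-238288830, minus strand: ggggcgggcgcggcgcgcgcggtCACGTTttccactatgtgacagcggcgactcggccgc
BMAL1, chr11:13277810-13277839, plus strand: aggcagaaagTAGGTCAgggacggaggtgc
The NR1D2 stretch carries 2 copies of the E-box and, on the opposite strand, a D-box. The NR1D1 stretch carries an E-prime box on the opposite strand, PER1 an E-box, PER2 an E-prime box and BMAL1 a ROR element.

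Among all 35116 windows, 7.26% held an E-box and 0.664% held 2 or more, as the NR1D2 window did. Of the 15 clock gene windows, only 2 held an E-box. These belonged to NR1D2 and PER1, and no other clock gene had an E-box in its windows. An E-prime box was in 5.34% of windows and in those of 5 clock genes, PER2, CLOCK, CRY1, CRY2 and NR1D1. A D-box was in 1.01% of windows and in those of PER2, PER3 and NR1D2. The ROR element was in 1.85% of windows, BMAL1 and CRY2 among them. The full cAMP response element was also in 1.85% of windows and in none of the 15 clock gene windows, while its end was in 24.6% of windows and in those of 5 clock genes. DBP had no match to any of these letters in its window. A match is a run of letters and not a measured binding site.

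The libraries held 8493271 to 13604150 reads over all genes of the table, and replicate libraries correlated at 0.976 to 0.985 across genes, which are not independent replicates. Normalised reads are reads divided by the library's size factor. The summed level of 6 epithelial markers was 27747 to 101128 normalised reads in the libraries of H460, HCC827 and H441 and 232 to 265 in those of H1703. In H460 that sum came mostly from KRT8, KRT18 and KRT19. The other markers were low there, with EPCAM at 3.06 to 8.80, CDH1 at 0 to 0.787 and KRT7 at 18.6 to 71.4. In HCC827 and H441, EPCAM was at 2158 or more, CDH1 at 3423 or more and KRT7 at 15370 or more. The lung adenocarcinoma genes NKX2-1, SFTPB and NAPSA summed to 2.28 to 18.1 in H460 and H1703. With the combination their sum went from between 1045 and 1102 to between 434 and 529 in HCC827, and from between 2751 and 2837 to between 1531 and 1704 in H441. The sum of VIM and ZEB1 went from 8014 and 8951 to between 14406 and 19937 with the combination in H460, and from 10190.1 and 11238 to between 16678 and 18088 in H1703. In HCC827 that sum was 4344 to 4976 over its 4 libraries, and in H441 it was only 113 to 203. Of 9 genes of blood, vessel and stromal cells, 6 were measured and summed to 6.31 to 159. TP63 of the squamous pair had no read in H460, 5.88 normalised reads or less in H1703 and HCC827, and 38.7 to 64.5 in H441. The part of these marker differences in the clock gene results was not tested.

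With vehicle, the clock genes spanned a wide range of levels. Per kilobase of exon, CLOCK was the highest of the 10 in each line, with a mean of 155 ± 2.81 normalised reads (SD, n = 2) in H460 and 252 ± 17.2 in H1703, against 116 ± 6.56 in HCC827 and 235 ± 20.5 in H441. DBP was the lowest of the 10 in each line on the same scale, from 3.04 ± 0.561 in H460 to 7.12 ± 1.15 in H441. The other 8 genes lay between these ends, and the plot of vehicle levels shows that the lines differed most in PER3.

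**Figure D1:**
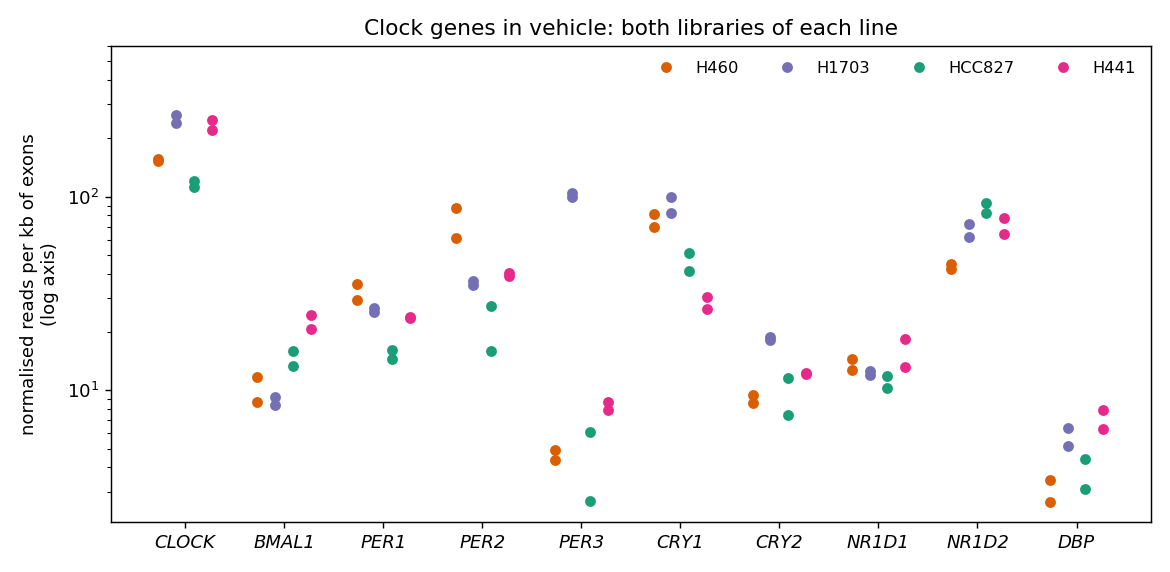
Normalised reads per kilobase of exon (log axis) of the 10 clock genes in the 8 vehicle libraries, with 1 point per library and 1 colour per line. By the mean of each line CLOCK lies at the top and DBP at the bottom, and the PER3 points of H1703 stand near 102 while those of the other lines stay under 9.

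PER3, the least rhythm-critical of the PER repressors, gave the widest gap between lines. Its vehicle level was 102 ± 3.85 normalised reads per kilobase in H1703 (SD, n = 2), 8.31 ± 0.565 in H441, 4.66 ± 0.411 in H460 and 4.41 ± 2.43 in HCC827. H1703 lay above H441 by 3.57 ± 0.28 on the log2 scale (standard error from limma, adjusted p = 8.98e-10), and H441 above H460 by 0.79 ± 0.28 (adjusted p = 0.0208, but 0.106 without H460 vehicle replicate 2). The antisense transcript Z98884.1 shares 482 exon bases with PER3 on the other strand and had 229 to 408 reads in H1703 libraries against 2 to 41 elsewhere. UTS2, which shares 868 exon bases on the other strand, had 106 to 189 reads in H1703 against 2 to 19 elsewhere. These shared bases are 5.95% (Z98884.1) and 10.7% (UTS2) of the PER3 exon bases. No source used here gives the strand setting of the authors' counting, so reads in the shared bases cannot be assigned to PER3 or to these neighbours. PER3 itself had 828 to 1411 reads in H1703 libraries against 18 to 110 elsewhere. The part of the shared bases in this gap was not tested.

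The other genes ordered the lines differently from one another. For CLOCK, H1703 and H441 did not differ beyond their spread (adjusted p = 0.338), H441 was above H460 (adjusted p = 3.67e-06) and H460 above HCC827 (adjusted p = 0.000325). For its partner BMAL1 the order was H441, HCC827, H460 and H1703, with steps of 0.61 ± 0.20 (adjusted p = 0.0172) and 0.51 ± 0.20 (adjusted p = 0.0405) and no difference beyond the spread between the last pair (adjusted p = 0.491). Each BMAL1 step ended in 2 of 16 fits with 1 library left out. The step from H441 to HCC827 ended without vehicle replicate 1 of either line (adjusted p = 0.141 without that of H441 and 0.14 without that of HCC827). The step from HCC827 to H460 ended without H460 vehicle replicate 1 (adjusted p = 0.322) or HCC827 vehicle replicate 2 (adjusted p = 0.232), and also under median centring, quantile normalisation, limma voom and neither trend nor robust settings (adjusted p = 0.0624 to 0.16). H1703 thus held one of the highest CLOCK levels beside the lowest mean BMAL1 level.

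Among the repressors, PER1 was lowest in HCC827, below H441 by 0.63 ± 0.16 (adjusted p = 0.00315), and its 3 other lines did not differ from their neighbours in the order H460, H1703 and H441 (adjusted p = 0.148 and 0.551). PER2 was highest in H460, 0.88 ± 0.25 above H441 (adjusted p = 0.00614), and lowest in HCC827, 0.77 ± 0.25 below H1703 (adjusted p = 0.0153). CRY1 fell into an order of H1703 and H460 (adjusted p = 0.2 between them), HCC827 (0.71 ± 0.16 below H460, adjusted p = 0.00082) and H441 (0.69 ± 0.16 below HCC827, adjusted p = 0.00112). CRY2 was highest in H1703, 0.59 ± 0.21 above H441 (adjusted p = 0.0227), and the other 3 lines did not differ from their neighbours in the order. The PER2 step from H460 to H441 ended without H460 vehicle replicate 1, where it was 0.62. That from H1703 to HCC827 ended without H1703 vehicle replicate 1 and without HCC827 vehicle replicate 2, where it was 0.39. It also ended with neither trend nor robust settings (adjusted p = 0.0587) and under limma voom (adjusted p = 0.0672). The CRY2 step ended without any single vehicle library of H1703 or H441, at values of 0.56 to 0.61.

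NR1D2 was highest in HCC827, 0.31 ± 0.11 above H441 (adjusted p = 0.0305, but 0.322 without H441 vehicle replicate 1 and 0.502 under median centring), and lowest in H460, which lay 0.60 ± 0.11 below H1703 (adjusted p = 0.000136). NR1D1 did not differ between neighbouring lines (adjusted p = 0.617, 0.755 and 0.706), and neither did DBP (adjusted p = 0.45, 0.11 and 0.482). Over the 6 pairs of lines, 40 of 60 differences between vehicle levels were called at an adjusted p under 0.05. By pair, 6 clock genes were called between H460 and H1703 (46.4% of all genes tested were), 6 between H460 and HCC827 (50.3%), 8 between H460 and H441 (54.2%), 8 between H1703 and HCC827 (50.7%), 4 between H1703 and H441 (52.1%) and 8 between HCC827 and H441 (44.7%). The counts lie on both sides of these backgrounds.

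Comparing the 2 responsive with the 2 non-responsive lines in vehicle, 7 of 10 clock genes differed, where 56.3% of all genes tested did. CRY1 was 1.18 ± 0.11 higher on the log2 scale in the responsive lines (adjusted p = 1.46e-08) and PER3 1.87 ± 0.20 higher (adjusted p = 6.97e-08), although the PER3 level of H460 lay below that of H441. PER2 (0.82 ± 0.17), PER1 (0.59 ± 0.11) and CLOCK (0.26 ± 0.06) were also higher there. HCC827 had the lowest mean level of each of these genes. H1703 did not differ from H441 in PER2, PER1 or CLOCK (adjusted p = 0.655, 0.551 and 0.338). The CLOCK level of H460 lay below that of H441 (log2 difference -0.60, adjusted p = 3.67e-06). BMAL1 was lower by a log2 difference of -0.91 ± 0.14 (adjusted p = 1.43e-05) and NR1D2 by -0.53 ± 0.08 (adjusted p = 6.92e-06). NR1D2 did not differ between H1703 and H441 (adjusted p = 0.58). CRY2 (0.27 ± 0.15, adjusted p = 0.122), NR1D1 (-0.02 ± 0.20, adjusted p = 0.947) and DBP (-0.28 ± 0.21, adjusted p = 0.272) did not pass. Each class is 2 lines, so a difference of class and a difference between individual lines cannot be told apart.

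With the combination, NR1D1 and NR1D2 rose in both responsive lines, BMAL1 rose in H460, and CLOCK fell in H1703. Of the PER and CRY genes, PER3 rose and CRY1 fell in H460, PER1 and PER2 rose in H1703, and PER1 rose in H441. CRY2 passed the test in no line, and neither did DBP (unadjusted p = 0.0606 to 0.946). In H460, 4 of 10 clock genes were called higher (14.1% of all genes tested were) and 1 lower (12.6%). In H1703, 4 were called higher (17.9%) and 1 lower (17.6%). HCC827 had none called higher (4.42%) or lower (5.5%) by limma, with CRY1 alone at an unadjusted p under 0.05 and 0 called by limma voom. H441 had 1 called higher, PER1 (2.77%), and none lower (1.86%).

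The median change of the 10 genes was 0.28 on the log2 scale in H460, where it was 0.05 over all genes tested. It was 0.52 in H1703 (0.08 over all genes), 0.03 in HCC827 (0) and 0.18 in H441 (0). Centring each library on its own median shifts every change by -0.19 in H460 and -0.24 in H1703, and takes the share of all called genes that were higher from 52.7 to 32.6% in H460 and from 50.4 to 31.1% in H1703. In a dish, fewer cells of a kind with a gene on and less of its RNA in each cell cannot be told apart. The plot of changes gives all 40 values.

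**Figure D2:**
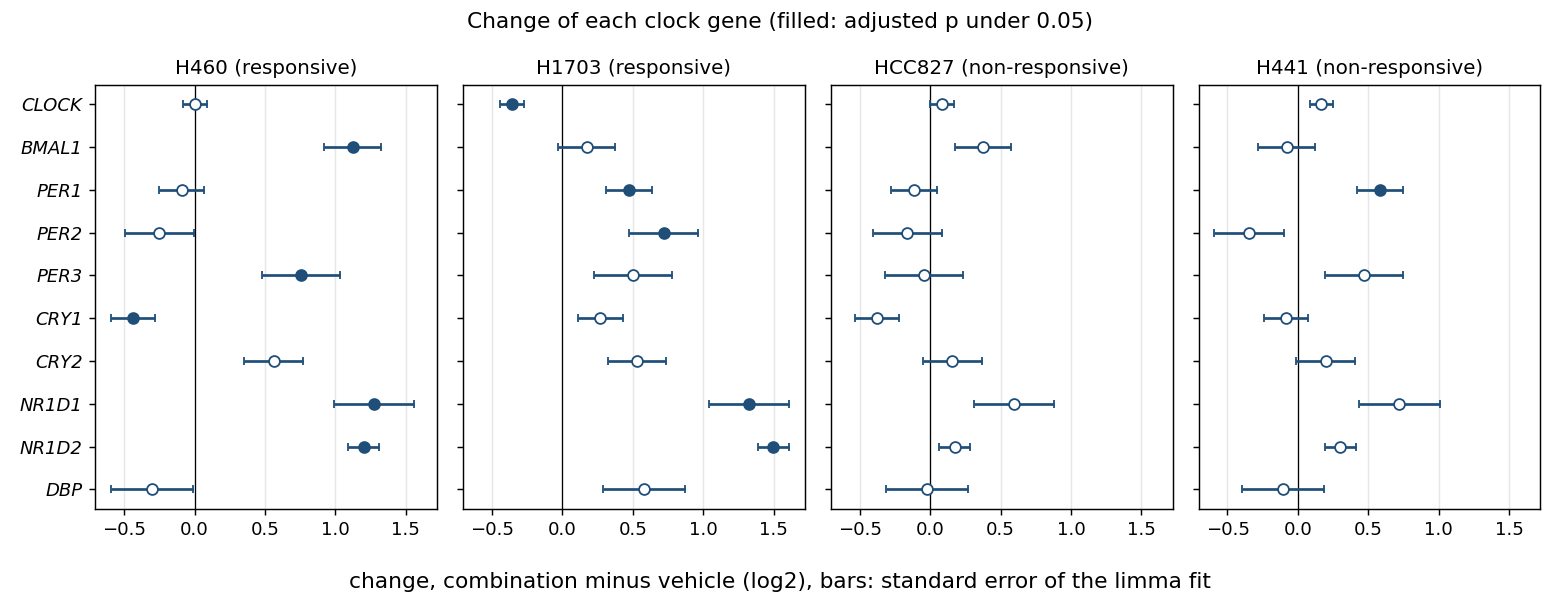
Change of each clock gene (combination minus vehicle, log2) in each line, with bars for the standard error from limma and filled points for an adjusted p under 0.05. NR1D1 and NR1D2 lie above 1 in H460 and H1703, and no point is filled in HCC827.

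NR1D2 encodes REV-ERB beta, and the stretch with 2 E-boxes printed above lies before its second start, in an intron of the longer transcript. The gene spans chromosome 3, 23945260 to 23980618, on the plus strand (ENSG00000174738.13). In H460, NR1D2 stood at 247 and 263 normalised reads with vehicle and at 558 and 625 with the combination. In H1703 it went from 358 and 420.4 to 1076 and 1129 normalised reads. In both responsive lines the combination libraries lay well above those with vehicle, with no overlap.
The mean ratio was 2.32 in H460 (log2 change 1.20 ± 0.11, adjusted p = 6.11e-08) and 2.83 in H1703 (1.50 ± 0.11, adjusted p = 1.88e-09). In HCC827, NR1D2 stood at 539 and 479 normalised reads with vehicle and at 574 in both combination libraries. In H441 it stood at 375 and 449 with vehicle and at 492 and 523 with the combination. The treatments did not overlap in these lines either, but the changes of 0.17 ± 0.11 (adjusted p = 0.398) and 0.30 ± 0.11 (adjusted p = 0.139) did not pass. The response of the 2 responsive lines exceeded that of the 2 non-responsive lines by 1.11 ± 0.11 (adjusted p = 3.55e-07), where 23.3% of all genes tested showed such a difference. NR1D2 and CLOCK were the 2 clock genes of 10 that did.

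NR1D1 encodes REV-ERB alpha, lies on chromosome 17, 40092787 to 40100725, on the minus strand (ENSG00000126368.6), and had 27 to 115 reads per library. In H460, NR1D1 stood at 35.2 and 40.1 normalised reads with vehicle and at 68.3 and 131 with the combination. In H1703 it went from 33.1 and 35.0 to 95.8 and 83.5. In these lines the mean ratio was 2.65 (log2 change 1.27 ± 0.29, adjusted p = 0.00198) and 2.63 (1.33 ± 0.29, adjusted p = 0.00101).
In HCC827, NR1D1 stood at 32.7 and 28.4 normalised reads with vehicle and at 52.9 and 42.4 with the combination. In H441 it stood at 36.4 and 51.0 with vehicle and at 58.4 and 90.8 with the combination. Every combination library of every line therefore lay above both vehicle libraries of its line. The non-responsive changes were 0.60 ± 0.29 (adjusted p = 0.229) and 0.72 ± 0.29 (adjusted p = 0.178), and the responsive lines exceeded them by 0.64 ± 0.29, which did not pass (adjusted p = 0.12). The H460 call rested on 1 library, since without H460 combination replicate 2 the change was 0.82 (adjusted p = 0.0667), and a fit of the H460 libraries alone did not pass (adjusted p = 0.0809).

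NR1D1 shares 263 exon bases, 9.49% of its own, with THRA on the opposite strand, a thyroid hormone receptor gene. THRA changed the other way in the responsive lines, by -0.65 ± 0.10 in H460 (adjusted p = 5.31e-05) and -1.46 ± 0.10 in H1703 (adjusted p = 7.68e-10). In H460 its reads went from 577 and 786 to 359 and 338, and in H1703 from 841 and 1082 to 264 and 356. In HCC827 the THRA change was 0.29 ± 0.10 (adjusted p = 0.0846) and in H441 -0.02 ± 0.10 (adjusted p = 1.0). So NR1D1 rose where its overlapping neighbour fell.

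BMAL1 pairs with CLOCK and is the target of NR1D repression at ROR elements, to which a match is printed above. The gene spans chromosome 11, 13276652 to 13387266, on the plus strand (ENSG00000133794.17). In H460, BMAL1 stood at 58.7 and 78.7 normalised reads with vehicle and at 137 and 168 with the combination. That rise was 1.12 ± 0.20 (adjusted p = 0.000232), a mean ratio of 2.21, in the same line in which NR1D1 and NR1D2 also rose. In H1703, BMAL1 stood at 56.5 and 62.4 with vehicle and at 70.8 and 63.8 with the combination (0.17 ± 0.20, adjusted p = 0.564).
In HCC827 it stood at 89.7 and 107 with vehicle and at 107 and 153 with the combination (0.37 ± 0.20, adjusted p = 0.296). In H441 it stood at 166 and 139 with vehicle and at 148 and 139 with the combination (-0.08 ± 0.20, adjusted p = 0.934). The treatments overlapped in both of these lines. The 4 responses of BMAL1 differed from one another (F = 6.62, adjusted p = 0.013), where 31.8% of all genes tested differed and 4 clock genes did, CLOCK, BMAL1, PER1 and NR1D2. That difference ended in 2 of 16 fits with 1 library left out, at an adjusted p of 0.0849 without H460 vehicle replicate 1 and also without H460 combination replicate 2.

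CLOCK, the histone acetyltransferase partner, spans chromosome 4, 55427903 to 55547138, on the minus strand (ENSG00000134852.15). In H1703, CLOCK stood at 2819 and 3105 normalised reads with vehicle and at 2179 and 2448 with the combination. It fell there to a mean ratio of 0.781 (log2 change -0.36 ± 0.08, adjusted p = 0.002). Under quantile normalisation the change was -0.14 and did not pass (adjusted p = 0.196).
In H460, CLOCK stood at 1797 and 1844 with vehicle and at 1736 and 1916 with the combination. HCC827 had 1314 and 1423 normalised reads of CLOCK with vehicle and 1472 and 1428 with the combination. In H441 the values were 2934 and 2593 with vehicle and 3182 and 3012 with the combination. None of these 3 lines passed (log2 changes 0.00, 0.08 and 0.17 ± 0.08, adjusted p = 1.0, 0.631 and 0.32). The responsive minus non-responsive difference was -0.30 ± 0.08 (adjusted p = 0.0114), and among the 4 lines F was 7.64 (adjusted p = 0.00743). The F result ended without H1703 vehicle replicate 2 (adjusted p = 0.07) and without H1703 combination replicate 1. Under quantile normalisation neither the class difference (-0.19, adjusted p = 0.102) nor the F result (adjusted p = 0.181) passed, and with neither trend nor robust settings both missed as well (adjusted p = 0.0995 and 0.116).

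PER1, the PER gene that answers outside stimuli fastest, spans chromosome 17, 8140472 to 8156506, on the minus strand (ENSG00000179094.16). In H1703, PER1 stood at 187 and 178 normalised reads with vehicle and at 249 and 260.1 with the combination. In H441 it stood at 166 and 168 with vehicle and at 249 and 254 with the combination. PER1 thus rose in 1 line of each class, by 0.48 ± 0.16 in H1703 (adjusted p = 0.027) and 0.58 ± 0.16 in H441 (adjusted p = 0.0437), with no overlap between treatments.
In H460, PER1 stood at 204 and 247 with vehicle and at 179 and 247 with the combination (-0.09 ± 0.16, adjusted p = 0.754). HCC827 had 113 and 101 normalised reads of PER1 with vehicle and 112 and 86.7 with the combination (-0.11 ± 0.16, adjusted p = 0.757). The treatments overlapped in both lines, and the 4 responses differed (F = 5.18, adjusted p = 0.031) without a difference between classes (-0.04 ± 0.16, adjusted p = 0.897).
These PER1 calls were close to the threshold. Leaving out any library of H1703 ended the H1703 call (adjusted p up to 0.128), and leaving out any of H441, any of H1703 or either vehicle library of HCC827 ended the H441 call (adjusted p up to 0.185). Median centring gave 0.23 in H1703 (adjusted p = 0.325) and 0.60 in H441 (adjusted p = 0.0532). The F result ended in 11 of 16 fits with 1 library left out, with an adjusted p of up to 0.0694.

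PER2, a repressor that loss-of-function studies place at the core of the loop, spans chromosome 2, 238244038 to 238290102, on the minus strand (ENSG00000132326.12). In H1703, PER2 stood at 253 and 239.6 normalised reads with vehicle and at 429 and 388 with the combination, a rise of 0.72 ± 0.25 (adjusted p = 0.0308). In H460 it stood at 602 and 422 with vehicle and at 568 and 316 with the combination. The replicates of H460 differed from each other by more than the treatments did (-0.25 ± 0.25, adjusted p = 0.527).
In HCC827, PER2 stood at 188 and 109 with vehicle and at 129 and 126 with the combination (-0.16 ± 0.25, adjusted p = 0.78). In H441 it stood at 278 and 268 with vehicle and at 209.5 and 219 with the combination (-0.35 ± 0.25, adjusted p = 0.539). The H441 treatments did not overlap, and the direction there was opposite to H1703, but the F test of the 4 responses did not pass (adjusted p = 0.0747). That test passed in 5 of 16 fits with 1 library left out, with an adjusted p of 0.00448 without H460 combination replicate 1, 0.0185 without H460 combination replicate 2, 0.0307 without H460 vehicle replicate 2, and 0.0253 and 0.0119 without HCC827 vehicle replicate 1 and 2. The H1703 rise of PER2 ended when any H1703 library was left out (adjusted p up to 0.147) and under median centring (0.48, adjusted p = 0.169). Without H460 combination replicate 1, the H460 change was -0.67 (adjusted p = 0.0425).

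PER3 spans chromosome 1, 7784320 to 7845177, on the plus strand (ENSG00000049246.14). In H460, PER3 stood at 40.1 and 35.4 normalised reads with vehicle and at 57.1 and 75.3 with the combination (0.76 ± 0.28, adjusted p = 0.0496). In H1703 it stood at 806 and 851 with vehicle and at 1237 and 1112 with the combination (0.50 ± 0.28, adjusted p = 0.181). The absolute gain in H1703 was the larger, yet only the H460 change passed, and the F test of the 4 responses did not (adjusted p = 0.402).
HCC827 had 21.8 and 49.6 normalised reads of PER3 with vehicle and 23.5 and 43.3 with the combination (-0.04 ± 0.28, adjusted p = 0.978). In H441, PER3 stood at 64.1 and 70.5 with vehicle and at 88.7 and 99.9 with the combination (0.47 ± 0.28, adjusted p = 0.425). The spread of PER3 in HCC827 feeds the standard error of all 4 lines. The H460 call ended in 11 of 16 fits with 1 library left out (3 of the H460 libraries and all of H1703 and H441), with an adjusted p of 0.275 without H460 combination replicate 2. In H1703, limma voom on the reads gave 0.49 (adjusted p = 0.000108), and a fit of the H1703 libraries alone also passed (adjusted p = 0.0117). The antisense Z98884.1 rose in H460 by 1.56 ± 0.40 (adjusted p = 0.00575) from 6 and 4 reads to 19 and 14.

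CRY1, the stronger repressor of the CRY pair, spans chromosome 12, 106991364 to 107093829, on the minus strand (ENSG00000008405.12). In H460, CRY1 stood at 353 and 413 normalised reads with vehicle and at 254 and 311 with the combination, a fall to a mean ratio of 0.738 (-0.44 ± 0.16, adjusted p = 0.045). In H1703 it stood at 415 and 504 with vehicle and at 524 and 582 with the combination (0.27 ± 0.16, adjusted p = 0.205). The 2 responsive lines thus had changes of opposite sign, and only the fall in H460 passed.
In HCC827, CRY1 stood at 259 and 209.6 with vehicle and at 206 and 156 with the combination (-0.38 ± 0.16, unadjusted p = 0.0275, adjusted p = 0.154). In H441 it stood at 154 and 133 with vehicle and at 132 and 138 with the combination (-0.08 ± 0.16, adjusted p = 0.885). The F test of the 4 responses gave an adjusted p of 0.0566, and it passed under quantile normalisation (adjusted p = 0.0142), the filter at 3 above the lowest value (0.0358), limma voom (0.01) and in 3 of 16 fits with 1 library left out. The H460 call ended in 7 of 16 fits with 1 library left out, with an adjusted p of 0.296 without H460 combination replicate 1, 0.277 without H460 vehicle replicate 2 and 0.0526 to 0.0551 for the other 5.

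CRY2 spans chromosome 11, 45847118 to 45883248, on the plus strand (ENSG00000121671.11). In H460, CRY2 stood at 58.7 and 53.5 normalised reads with vehicle and at 89.7 and 78.7 with the combination (0.56 ± 0.21, adjusted p = 0.0519). In H1703 it stood at 117 and 113 with vehicle and at 162 and 172 with the combination (0.53 ± 0.21, adjusted p = 0.0542). Both responsive lines were higher by a ratio of about 1.5 with no overlap, and both fell just short of the threshold.
HCC827 had 46.1 and 71.9 normalised reads of CRY2 with vehicle and 75.3 and 55.3 with the combination (0.16 ± 0.21, adjusted p = 0.735). In H441, CRY2 stood at 75.1 and 76.0 with vehicle and at 87.6 and 86.2 with the combination (0.20 ± 0.21, adjusted p = 0.72). Leaving out any library of HCC827, whose vehicle pair is the most spread, brought both responsive lines past the threshold, as did a filter at 3 above the lowest value (adjusted p = 0.0375 and 0.0399).

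DBP, the output factor, spans chromosome 19, 48630030 to 48637438, on the minus strand (ENSG00000105516.10) and had only 13 to 70 reads per library. In H460, DBP stood at 22.5 and 17.3 normalised reads with vehicle and at 16.3 and 14.8 with the combination (-0.30 ± 0.29, adjusted p = 0.517). In H1703 it stood at 41.9 and 33.6 with vehicle and at 59.9 and 55.2 with the combination (0.58 ± 0.29, adjusted p = 0.136). The treatments did not overlap in either line, and the values lay in opposite directions.
HCC827 had 29.1 and 20.3 normalised reads of DBP with vehicle and 25.9 and 22.1 with the combination (-0.02 ± 0.29, adjusted p = 1.0). In H441, DBP stood at 51.9 and 41.2 with vehicle and at 34.3 and 53.6 with the combination (-0.10 ± 0.29, adjusted p = 0.949). No line passed the test. DBP shares 661 exon bases, 10.1% of its own, with SPHK2 on the opposite strand, and SPHK2 passed in no line (adjusted p = 0.191 to 0.99).

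**Figure D3:**
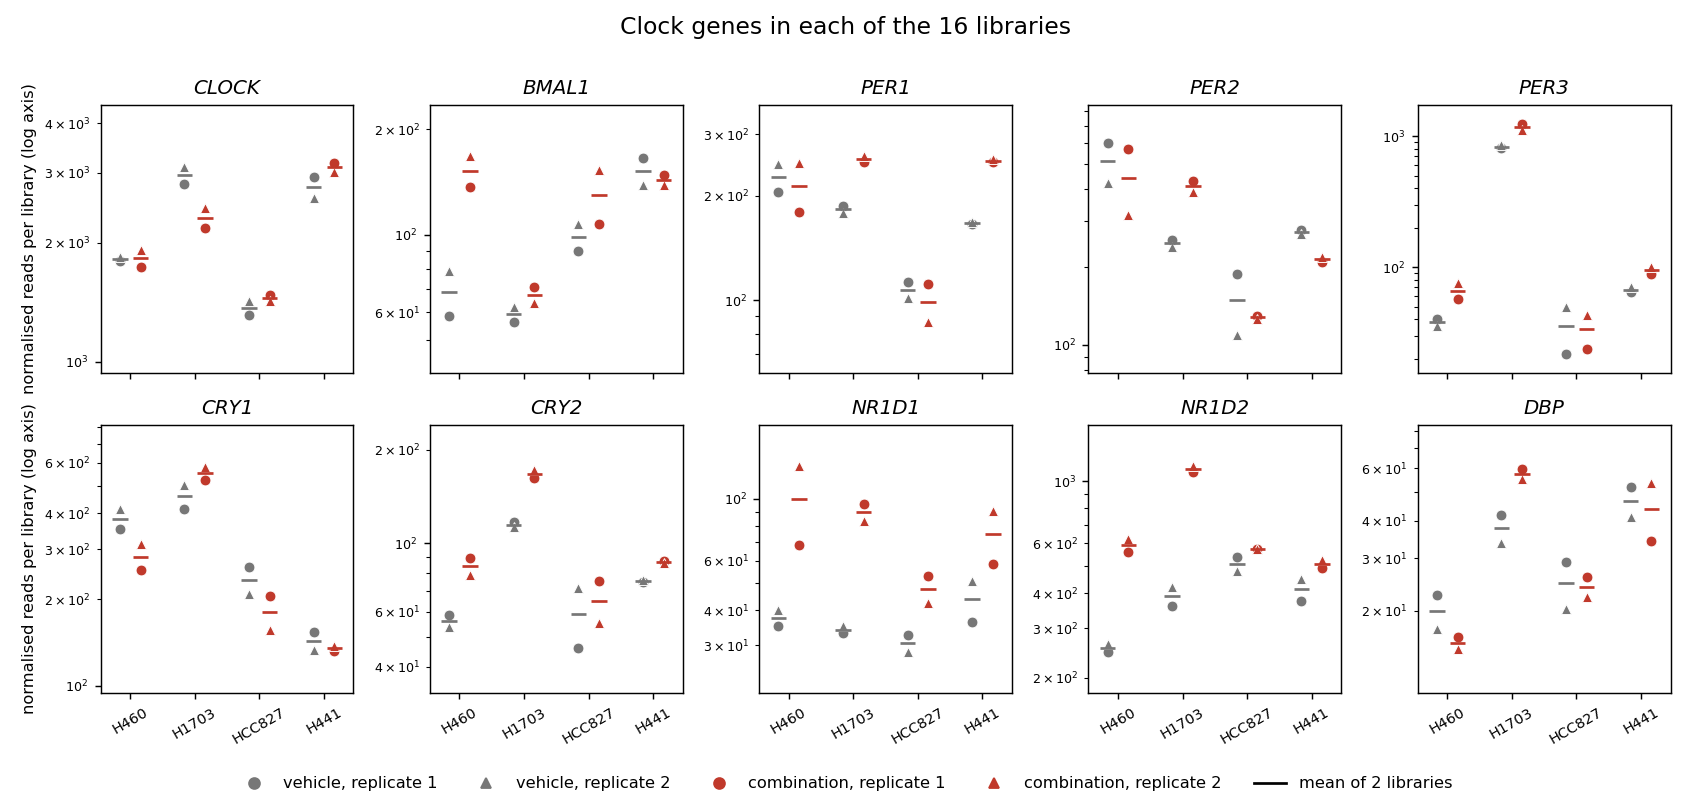
Normalised reads (log axis, different for each gene) of the 10 clock genes in each of the 16 libraries by line, with grey points for vehicle, red points for the combination, circles for replicate 1, triangles for replicate 2 and lines for the mean of the 2. The red NR1D1 and NR1D2 points lie above the grey ones in all 4 lines, with the widest gaps in H460 and H1703.

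By the likeness of their values, centred on each line's mean over the 16 libraries and compared with 15281 genes, NR1D1 was nearest to CCNH (Pearson r = 0.963), SAMD8 (0.957) and SMIM19 (0.955). PER1 was nearest to FOXN2 (0.947), RASA2 (0.879) and FRMD6 (0.87). DBP was nearest to DPH7 (0.889), HLA-L (0.872) and WDR81 (0.859). Genes picked for likeness to PER1 share its pattern over the lines by that choice. FOXN2, for example, had a log2 change of 0.57 in H1703 and 0.50 in H441 against -0.02 in H460 and -0.17 in HCC827. These correlations are descriptions over libraries that share treatment and depth.

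Of 59 further genes of the pathway, 58 were tested. In H460, 16 were called higher and 11 lower, where 14.1 and 12.6% of all genes tested were. H1703 had 16 and 16 (17.9 and 17.6% of all genes), HCC827 2 and 6 (4.42 and 5.5%), and H441 6 and 2 (2.77 and 1.86%). Their median change was 0.02, 0.06, -0.04 and -0.03 in that order, against 0.05, 0.08, 0 and 0 over all genes tested. The map of pathway genes shows those named here.

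**Figure D4:**
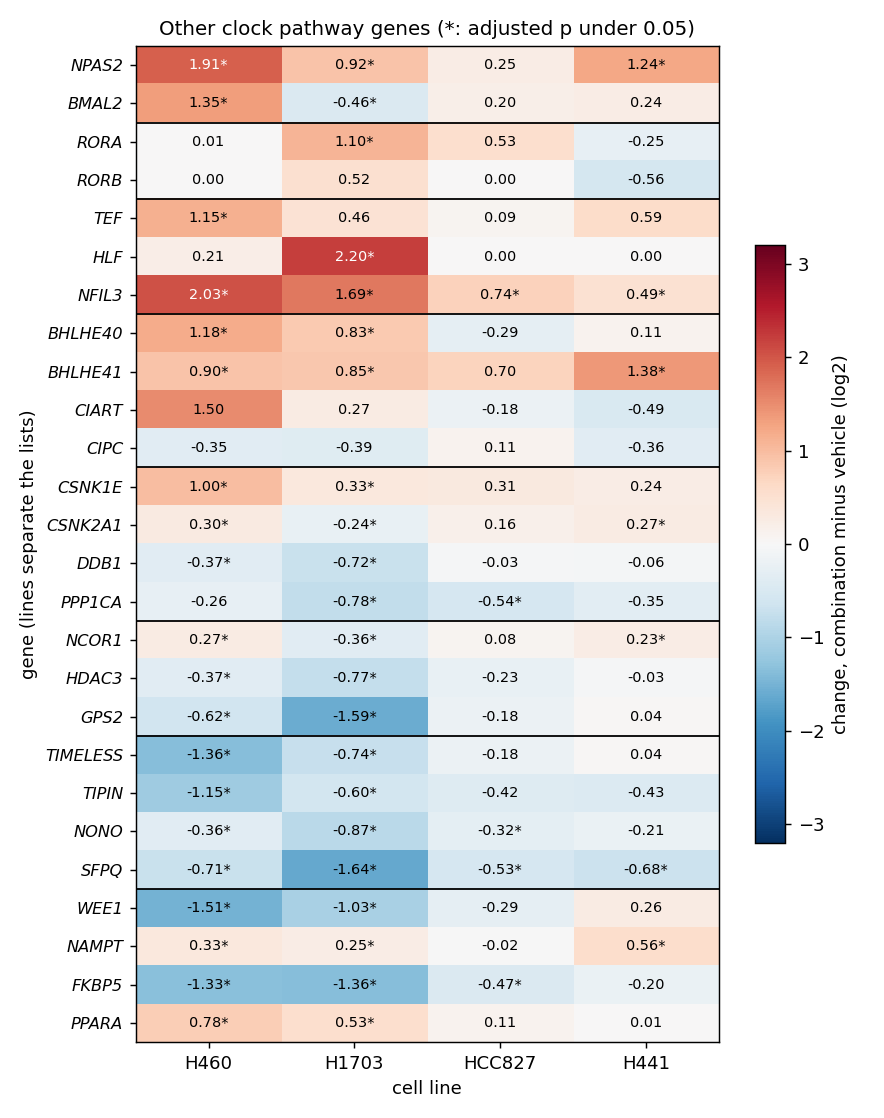
Log2 change (combination minus vehicle) of other clock pathway genes in the 4 lines, grouped by list, with an asterisk for an adjusted p under 0.05 and colour for direction and size. NFIL3 is higher in all 4 lines, and TIMELESS, SFPQ, WEE1 and FKBP5 are lower in H460 and H1703.

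The paralogues of the activators moved with or without their namesakes. NPAS2, which can stand in for CLOCK, stood at 580.1 and 587 normalised reads with vehicle and at 2105 and 2287 with the combination in H460. It rose by 1.91 ± 0.20 there (adjusted p = 2.75e-07), by 0.92 ± 0.20 in H1703 (adjusted p = 0.000954) and by 1.24 ± 0.20 in H441 (adjusted p = 0.000761), though CLOCK rose in none of these lines. BMAL2 rose in H460 by 1.35 ± 0.13 (adjusted p = 9.14e-08), where BMAL1 also rose, and changed by -0.46 ± 0.13 in H1703 (adjusted p = 0.00842). The H1703 call of BMAL2 ended without H1703 vehicle replicate 2 or without H1703 combination replicate 1 (adjusted p up to 0.135) and under quantile normalisation (-0.22, adjusted p = 0.179).

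ROR receptors compete with NR1D proteins for the same element. RORA rose in H1703 from 53.6 and 57.4 normalised reads to 126 and 117 (1.10 ± 0.27, adjusted p = 0.00324), and passed in no other line. RORB was at 39.3 to 64.1 normalised reads in H441 and at 3.27 or less in every other library, and its change passed in no line.

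The D-box activators TEF and HLF and their repressor NFIL3 (E4BP4) were called higher 2 times in each responsive line (14.1% of all genes in H460 and 17.9% in H1703) and 1 time in each non-responsive line (4.42% in HCC827 and 2.77% in H441), where HLF had no read. NFIL3 rose in all 4 lines, from 80.2 and 71.6 to 316 and 322 normalised reads in H460 and from 148 and 128 to 441.05 and 461 in H1703. In HCC827 it went from 337 and 302 to 472 and 605, and in H441 from 225 and 207 to 308 and 302. The log2 changes were 2.03 ± 0.13, 1.69 ± 0.13, 0.74 ± 0.13 and 0.49 ± 0.13, and the responsive lines exceeded the others by 1.25 (adjusted p = 7.47e-07). The H441 call of NFIL3 ended when any library of H441 was left out (adjusted p up to 0.217, without H441 vehicle replicate 2). TEF rose in H460 from 10.8 and 15.7 to 26.5 and 38.8 normalised reads (1.15 ± 0.29, adjusted p = 0.00452), a call that ended without H460 vehicle replicate 1 or H460 combination replicate 2 (adjusted p = 0.0679). HLF rose in H1703 from 15.6 and 9.81 to 68.6 and 64.6 (2.20 ± 0.51, adjusted p = 0.00172).

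Of the E-box repressors, BHLHE40 (DEC1) rose in H460 from 482 and 615 to 914 and 1681 normalised reads (1.18 ± 0.21, adjusted p = 0.000784) and in H1703 from 846 and 849 to 1542 and 1474 (0.83 ± 0.21, adjusted p = 0.00705). It passed in neither non-responsive line, and the class difference was 1.10 (adjusted p = 0.00174). BHLHE41 (DEC2) was called higher in H460, H1703 and H441 (0.90, 0.85 and 1.38 ± 0.33), from 2.21 and 4.34 to 12.1 and 11.8 normalised reads in H441. Its H460 and H1703 calls ended in 12 and 11 of 16 fits with 1 library left out (adjusted p up to 0.242 without H460 combination replicate 2 and 0.383 without H1703 combination replicate 1), and that of H441 in 3 (up to 0.172 without H441 vehicle replicate 1). CIART, at 2.36 to 18.2 normalised reads in H460, missed the threshold there (1.50 ± 0.56, adjusted p = 0.0555), and CIPC passed in no line.

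Genes for PER and CRY turnover, 12 of 13 tested, gave 4 higher and 1 lower in H460 (14.1 and 12.6% of all genes), 1 and 4 in H1703 (17.9 and 17.6%), 1 and 2 in HCC827 (4.42 and 5.5%) and 1 and 0 in H441 (2.77 and 1.86%). CSNK1E, a kinase that marks PER proteins for decay, rose by 1.00 ± 0.12 in H460 (adjusted p = 2.33e-06) and 0.33 ± 0.12 in H1703 (adjusted p = 0.0408), the latter ending without some single libraries (adjusted p up to 0.178, without H1703 combination replicate 2) and under median centring (0.09, adjusted p = 0.662). DDB1, part of a ubiquitin ligase for CRY1, changed by -0.37 (adjusted p = 0.000226) in H460 and -0.72 (adjusted p = 3.84e-08) in H1703. PPP1CA, a phosphatase subunit that acts on PER, changed by -0.78 in H1703 (adjusted p = 1.31e-05) and -0.54 in HCC827 (adjusted p = 0.00331, but 0.0931 without HCC827 combination replicate 2).

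In the corepressor complex that NR1D1 and NR1D2 recruit, the 6 genes gave 2 higher and 2 lower in H460 (14.1 and 12.6% of all genes), 1 higher and 4 lower in H1703 (17.9 and 17.6%), none in HCC827 (4.42 and 5.5%) and 1 higher in H441 (2.77%). GPS2 fell in H460 from 3304 and 3416 to 2101 and 2277 normalised reads (log2 change -0.62, adjusted p = 2.25e-05) and in H1703 from 2366 and 2477 to 747 and 859 (-1.59, adjusted p = 4.41e-11). HDAC3, the deacetylase of the complex, changed by -0.37 in H460 (adjusted p = 0.0113, but 0.0845 without H460 vehicle replicate 2 and 0.0548 without H460 combination replicate 1) and -0.77 in H1703 (adjusted p = 7.12e-06). NCOR1, its scaffold, was called in opposite directions, at 0.27 in H460 (adjusted p = 0.00316) and -0.36 in H1703 (adjusted p = 0.000151). The H460 value of NCOR1 did not pass under median centring (0.08, adjusted p = 0.503) or without H460 vehicle replicate 1 (adjusted p = 0.0747), and the H1703 value did not under quantile normalisation (-0.13, adjusted p = 0.105). So the NR1D transcripts rose in the responsive lines while those of 2 of their corepressor partners, GPS2 and HDAC3, fell.

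Partners of the PER complex and co-activators, 11 genes, gave 1 higher and 5 lower in H460 (14.1 and 12.6% of all genes), 2 and 5 in H1703 (17.9 and 17.6%), 0 and 3 in HCC827 (4.42 and 5.5%) and 0 and 2 in H441 (2.77 and 1.86%). SFPQ, an RNA-binding protein of the PER complex, fell in all 4 lines, by log2 changes of -0.71, -1.64, -0.53 and -0.68 in H460, H1703, HCC827 and H441 (adjusted p = 1.12e-05 or lower). NONO, its partner, changed by -0.36, -0.87 and -0.32 in H460, H1703 and HCC827 and did not pass in H441. The NONO calls ended in H460 without H460 vehicle replicate 1 (adjusted p = 0.0547) and in HCC827 without HCC827 vehicle replicate 2 (adjusted p = 0.179) or combination replicate 1 (adjusted p = 0.169). TIMELESS, which acts at replication forks and binds PER and CRY proteins, fell in H460 from 1870.3 and 2101 to 723 and 818 normalised reads (-1.36, adjusted p = 4.83e-10) and in H1703 from 1585 and 1385 to 884 and 887 (-0.74, adjusted p = 1.39e-06). Its fork partner TIPIN changed by -1.15 in H460 (adjusted p = 0.000664) and -0.60 in H1703 (adjusted p = 0.0491), the latter lost in 10 of 16 fits with 1 library left out (adjusted p up to 0.29, without H1703 vehicle replicate 1).

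Among 7 known clock output genes, 3 were called higher and 2 lower in H460 (14.1 and 12.6% of all genes), 2 and 2 in H1703 (17.9 and 17.6%), 0 and 1 in HCC827 (4.42 and 5.5%) and 1 and 0 in H441 (2.77 and 1.86%). WEE1, the kinase that holds back mitosis, changed by -1.51 in H460 (adjusted p = 4.58e-07) and -1.03 in H1703 (adjusted p = 3.72e-05). FKBP5, a glucocorticoid receptor co-chaperone, changed by -1.33, -1.36 and -0.47 in H460, H1703 and HCC827, the last of these ending without HCC827 combination replicate 2 (adjusted p = 0.0564). NAMPT, the rate-limiting enzyme of NAD salvage, rose in H441 from 4299 and 4149 to 6271 and 6176 normalised reads (0.56 ± 0.07, adjusted p = 0.00012). It was also called higher in H460 (0.33, adjusted p = 0.00171) and H1703 (0.25, adjusted p = 0.0111), but not under median centring (adjusted p = 0.284 and 0.966), nor in H1703 without vehicle replicate 1 (adjusted p = 0.201) or combination replicate 1. PPARA, a lipid oxidation receptor, rose by 0.78 in H460 and 0.53 in H1703, where the call ended without H1703 combination replicate 2 (adjusted p = 0.186) or vehicle replicate 2 (adjusted p = 0.0949) and under median centring (adjusted p = 0.15).

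Of 11 genes that induce or read out the stimulus response of the PER1 promoter, among them CREB1, EGR1 and FOS, none was called higher and 1 lower in H460 (14.1 and 12.6% of all genes), 4 higher in H1703 (17.9%) and none in HCC827 (4.42 and 5.5%) or H441 (2.77 and 1.86%). MYC, the target of MYCi975, stood at 663 and 665 normalised reads with vehicle and at 1688 and 1691 with the combination in H1703, a rise of 1.34 (adjusted p = 1.0e-08). It rose by 0.60 in HCC827 (adjusted p = 0.00164, but 0.065 without HCC827 combination replicate 2) and passed in neither H460 (-0.06) nor H441 (0.26). The clock gene rises in H460 were seen where MYC RNA did not pass the test, and those in H1703 where it rose. A link between MYC and the clock genes was not tested.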

How the data were processed

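The deposited table holds values of 28951 genes that the authors variance-stabilised on a log2 scale. The submitters' processing notes name Trimmomatic for trimming, STAR for alignment, featureCounts for counting and the build hg38 (GRCh38). Versions, annotation release and strand setting are not given in the sources used here. Per the labels' protocols, a NucleoSpin kit gave the RNA and a stranded SMARTer kit for total RNA the libraries. Inverting the transformation recovered whole reads, within 0.02, for 100% of values. Positions and exon lengths came from GENCODE 29, symbols from a separate list of gene names that holds the symbol BMAL1, and promoter letters from RefSeq.

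Genes with a mean of at least 1 above the lowest value were tested (23968, with 4983 left out). 1 fit of the 8 group means in limma 3.58.1 under R 4.3.3, with trended and robust empirical Bayes, pooled the spread over 16 libraries, with 8 residual degrees of freedom. P-values were adjusted by Benjamini and Hochberg over all genes tested, with a threshold of 0.05. All standard errors are from this fit. Figures were drawn with matplotlib 3.10.9, and tables with pandas 2.3.3 and numpy 2.4.6 under Python 3.11.15. The scripts were tested on simulated data.

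The clock genes, lists and tests were chosen with earlier results of these data known. All 10 clock genes are named. Other pathway genes are named when called in 2 lines in 1 direction, at most 4 a list by mean size of change, or when their list has up to 5 genes, and a few are not reported here. Alternatives were another scaling, other filters, other variance settings, limma voom on the recovered reads, a replicate block, each line alone, and leaving out each library.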

Additional observations from a re-analysis of the deposited data

Results flagged for a closer look

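The responses of 4 clock genes differed among the 4 lines by an F test of the differences themselves. NR1D2 gave an adjusted p of 1.96e-06, CLOCK 0.00743, BMAL1 0.013 and PER1 0.031. Between the 2 responsive and the 2 non-responsive lines, the response of NR1D2 differed with an adjusted p of 3.55e-07 and that of CLOCK with 0.0114. The NR1D2 results passed in every fit run. Those of CLOCK did not pass under quantile normalisation (adjusted p = 0.181 among lines and 0.102 between classes) or with neither trend nor robust settings (adjusted p = 0.116 and 0.0995). The F results of CLOCK and BMAL1 each ended in 2 of 16 fits with 1 library left out, and that of PER1 in 11 of 16. With neither trend nor robust settings the PER1 F result also missed (adjusted p = 0.0945). BMAL1 was called in H460, CLOCK in H1703 and NR1D2 in both, and PER1 rose in H1703 and H441, so that no 2 of these 4 genes were called in the same set of lines.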

How the results depend on the processing

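No called change turned direction under any of 11 other settings or 16 fits with 1 library left out. Most of these fits could not turn it. The filters, variance settings, replicate block and fits of each line alone return the same change and alter only its p-value. A change can differ only under median centring, quantile normalisation or limma voom, or without a library of a line in the comparison. Of 24 called changes or differences of the clock genes, 13 passed in every fit. All 7 class differences in vehicle were among them, as were the class difference and the F result of NR1D2. Of the changes with the combination in single lines, only those of NR1D2 in H460 and H1703, BMAL1 in H460 and NR1D1 in H1703 passed in every fit. In H460, 5 clock genes were called, with 3 under no filter, 3 with neither trend nor robust settings, 2 with the libraries of H460 alone and 3 to 6 with 1 library left out. In H1703, 5 were called, with 3 under median centring, 3 with neither trend nor robust settings and 3 to 6 with 1 library left out. HCC827 had 0 in every fit. In H441 the 1 call became 0 under median centring, quantile normalisation, no filter, neither trend nor robust settings and the libraries of H441 alone, and was 0 to 1 with 1 library left out. The class difference was called for 2 genes, 1 under quantile normalisation, 1 with neither trend nor robust settings, 4 with a replicate block and 2 to 3 with 1 library left out. The difference among lines was called for 4 genes, 2 with neither trend nor robust settings and 2 to 6 with 1 library left out. Under quantile normalisation it was again called for 4, with CRY1 (adjusted p = 0.0142) in and CLOCK (adjusted p = 0.181) out. Vehicle differences kept 7 to 8 calls between classes and 34 to 40 between pairs of lines. F values have no direction to reverse. Of 6228 values of 265 single results, 5854 kept their side of the threshold, 302 lost it, 72 gained it and 0 reversed. The causes were not tested.

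Across genes, deviations of same-numbered libraries correlated at 0.0319 (H460), 0.0136 (H1703), 0.0267 (HCC827) and 0.0166 (H441). A correlation over all genes cannot show whether replicate numbers pair the samples for a given gene. With the replicate block, 6635, 8696, 2663 and 1326 genes were called against 6398, 8500, 2378 and 1110, and the class difference also called BMAL1 (adjusted p = 0.0433) and PER2 (adjusted p = 0.034), and the difference among lines also called PER2 (adjusted p = 0.00569) and CRY1 (adjusted p = 0.0123). DBP had 13 to 70 reads per library and NR1D1 27 to 115, and each group had 2 libraries.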

Other observations

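TSC22D3, a glucocorticoid-induced leucine zipper gene among the clock outputs, is named here after its values were seen. It stood at 24.5 and 51.9 normalised reads with vehicle and at 672 and 745 with the combination in H460, a log2 change of 4.20 (adjusted p = 4.27e-08). FKBP5, another glucocorticoid receptor target, fell in the same libraries. In H441, TSC22D3 was already at 806 and 854 with vehicle and at 667 and 838 with the combination (-0.15, adjusted p = 0.919), and in H1703 it had 6 reads in all over 4 libraries.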
